A study of Drosophila melanogaster with 2 samples.

Results

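The distal intergenic Sima regions are 259 places in the Drosophila melanogaster genome, between genes and away from any annotated gene start. There, chromatin immunoprecipitation of GFP-tagged Sima gave a signal that ranked high in the pooled reads. They were chosen by measured signal: the 8.48% of regions with the highest signal were taken from a list of 30000 made from the pooled reads of both replicates. A region was kept when its summit lay outside every annotated gene and more than 500 bp from the first base of any annotated transcript. That left 259 regions, 10.2% of those ranked so high and 5.3% of the 4888 regions of the list that meet the rule on position; the same ranks held 1306 regions with a summit within 500 bp of a start and 979 with a summit inside a gene but away from its starts. All 3 groups were selected on the pooled signal, so that signal is given here as a description only. By its name the pooled list holds peaks and background. Of the 259 members, 123 were outside the authors' own list thresholded on the irreproducible discovery rate. The annotation had 18358 genes after its 5896 transposable element entries were left out. With those entries counted as genes, 249 of the 259 regions were still distal, and all 259 were distal in the RefSeq gene models.

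The study had 1 group: whole embryos aged 0 to 24 h, both sexes pooled, of a transgenic line that expresses isoform RB of sima with enhanced GFP joined to its C terminus. There were 2 biological replicates, immunoprecipitated with an anti-GFP antibody after sonication to fragments of 200 to 800 bp. Which promoter drives the fusion and whether the embryos keep their own sima gene are not stated in the labels, which name no low-oxygen treatment either. No untagged or control sample was analysed here, and read numbers are not given, so the depth behind each signal is unknown. Whole embryos hold many cell types, and a strong signal in few cells cannot be told apart from a weak signal in many.

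Sima is the Drosophila counterpart of the alpha subunit of mammalian hypoxia-inducible factor. With its partner Tango it binds DNA at a short core, ACGTG or GCGTG, and turns on genes for low-oxygen metabolism and tracheal growth; in normal oxygen the prolyl hydroxylase Fatiga (Hph) marks it for destruction. Sequence between genes and away from their starts holds enhancers, which drive a gene in chosen cells from a distance, insulators, which limit that reach, and Polycomb response elements, which recruit repressive complexes to developmental genes.

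The DNA at the summits is shown for several strong regions, which do not include the strongest member of all. The bases from 50 before to 50 after the summit are given, 5′ to 3′, for the 5 strongest regions matched in both replicates among those whose sequence can be shown, named by the protein-coding genes to their left and right. Positions are on dm6 and the bases come from the Release 6 genome. Capitals mark the words TTAAAA and AAAAAA on either strand.
mtSSB to tara, chr3R:16222434-16222534, plus strand: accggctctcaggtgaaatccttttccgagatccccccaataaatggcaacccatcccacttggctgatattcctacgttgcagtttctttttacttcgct
C15 to sp3, chr3R:21520325-21520425, plus strand: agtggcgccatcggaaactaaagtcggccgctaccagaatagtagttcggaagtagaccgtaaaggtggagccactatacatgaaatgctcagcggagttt
CG3149 to AdamTS-B, chrX:5696465-5696565, plus strand: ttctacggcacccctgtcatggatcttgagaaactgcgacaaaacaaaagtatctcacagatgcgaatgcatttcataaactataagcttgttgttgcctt
RFeSP to chinmo, chr2L:1638655-1638755, plus strand: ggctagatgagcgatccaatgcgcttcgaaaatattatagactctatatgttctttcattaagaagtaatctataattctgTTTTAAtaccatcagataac
CG9743 to RpS7, chr3R:30203450-30203550, plus strand: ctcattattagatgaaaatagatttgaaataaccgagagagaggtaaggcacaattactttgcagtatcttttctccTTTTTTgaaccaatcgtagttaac
None of these 5 windows holds the hypoxia core, ACGTG or GCGTG on either strand. Their G+C content is 47.5%, 49.5%, 40.6%, 31.7% and 32.7%, in the order shown. The 3 strongest such regions that do hold the core are given next, and there capitals mark the core alone.
Sol1 to Cyp9f2, chr3R:12403082-12403182, plus strand: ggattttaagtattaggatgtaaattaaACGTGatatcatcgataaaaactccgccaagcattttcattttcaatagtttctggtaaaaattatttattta
CG13896 to hng3, chr3L:724595-724695, plus strand: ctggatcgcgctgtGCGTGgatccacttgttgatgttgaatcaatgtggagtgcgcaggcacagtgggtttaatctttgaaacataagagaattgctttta
SoxN to CG32986, chr2L:8846072-8846172, plus strand: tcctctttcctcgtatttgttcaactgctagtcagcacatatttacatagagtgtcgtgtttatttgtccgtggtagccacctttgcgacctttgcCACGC
The core lies left of the summit base in the windows between Sol1 and Cyp9f2 and between CG13896 and hng3, and at the right edge of the window between SoxN and CG32986.

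Distal intergenic summits were a small class at every signal level. They made up 9% of the 100 strongest regions, 10% of the next 400, 11.3% of the next 772 and 9.67% of the remaining ranks that were searched. Further down the pooled list their share was larger, at 18.9% of ranks 20001 to 30000. Most intergenic summits at high rank lay beside a gene start: of 852 in the ranks searched, 593 were within 500 bp of one.

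**Figure D1:**
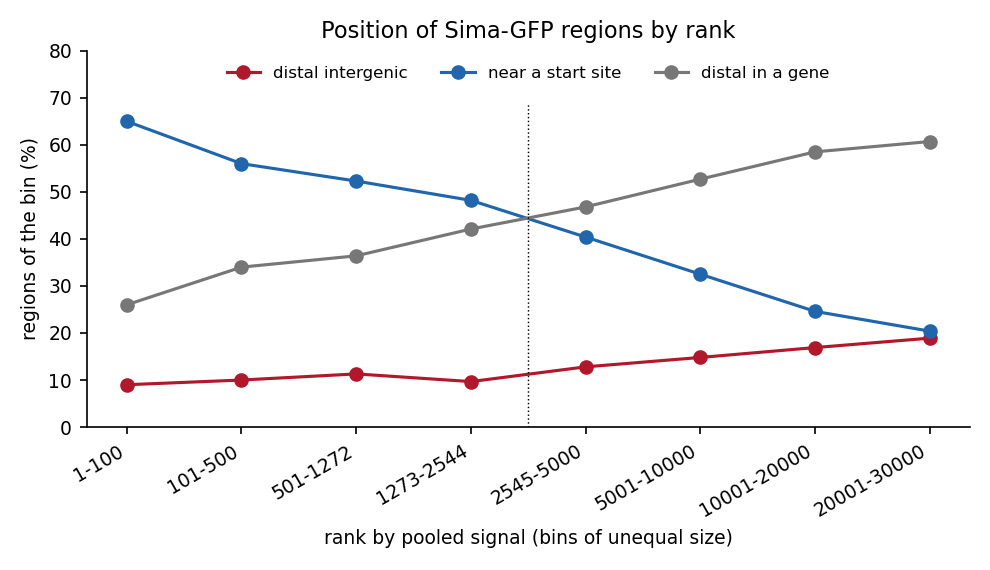
Share of regions (percent) in each of 3 position classes, across 8 bins of rank by pooled signal from strongest (left) to weakest (right); the dotted line stands after the ranks searched. The distal intergenic share stays between 9 and 12.8% in the bins up to rank 5000 and reaches 18.9% in the last bin, while the share near a start site is 65% in the first bin and 20.4% in the last.

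The 15 strongest members lay beside genes of several kinds, among them genes for chromatin proteins, developmental transcription factors and mitochondrial proteins. Signals are given below as ratios to the median signal of the same replicate's own list of 30000 regions, because the scale of the deposited signal is not given. All 15 had a summit within 100 bp in both replicates, as did 90.3% of all members. Their ratios ran from 4.71 to 11.6 in replicate 1 and from 6.46 to 23.2 in replicate 2. Replicate 2 was the higher for 14 of the 15, against 65.4% of all members matched in both. The 15 ranked between 30 and 219 in replicate 1 and between 11 and 215 in replicate 2. The pooled rank of the strongest was 13, so 12 regions of other classes lay above it.

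The strongest member lay on arm 2R, at bases 13035205 to 13035471. Its ratio was 11.6 in replicate 1 and 23.2 in replicate 2, a mean of 17.4 ± 8.20 (SD, n = 2). The summit was 27425 bp past the end of Su(z)2 (FBgn0265623), a paralog of the Polycomb group gene Psc, and 9359 bp past the end of CG13323; both genes point towards it. The highest signal of the class therefore lay far from both flanking starts, the nearer being that of CG13323 at 11920 bp.

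The second and ninth members shared the 20400 bp gap between mtSSB, which encodes the mitochondrial single-stranded DNA-binding protein, and tara (taranis, FBgn0040071), a trithorax group gene. The stronger of them, at 3R bases 16222345 to 16222630, had ratios of 10.3 and 16.9 in replicates 1 and 2, a mean of 13.6 ± 4.67 (SD, n = 2). The other, at 16224269 to 16224664, had 6.01 and 9.89. They lay 3167 and 1184 bp upstream of tara. Both were also within 1000 bp of the start of the non-coding gene lncRNA:CR45643, on either side of it.

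Several of the next members lay close to the 500 bp limit. The summit between C15, a homeobox gene, and sp3 was 553 bp upstream of sp3 and had ratios of 6.35 and 13.7 in replicates 1 and 2. The summit between CG14762 and Optix, a Six-family homeobox gene of eye development, was 642 bp upstream of CG14762 and 16886 bp before Optix, with ratios of 5.78 and 12.2. The summit between CG9743 and RpS7, a ribosomal protein gene, was 502 bp upstream of CG9743, the shortest distance of any member, and 2947 bp past the end of RpS7, with ratios of 5.12 and 11.1. In all 3 the value in replicate 2 was over 2 times that in replicate 1. The one between jp, which encodes junctophilin, and brwl was 765 bp upstream of jp, with ratios of 6.02 and 9.15. The one between CG3149 and AdamTS-B, a gene for a secreted metalloprotease, was 608 bp upstream of the start of lncRNA:CR42794, with ratios of 6.31 and 11.1.

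Other strong members sat in short gaps at the ends of genes. The summit between blw, which encodes the alpha subunit of ATP synthase, and CycB (cyclin B) was 778 bp past the end of blw and 563 bp past the end of CycB, with ratios of 8.19 and 12.1 in replicates 1 and 2. The gap between Sol1 and Cyp9f2, a cytochrome P450 gene, was 437 bp, and its summit had ratios of 6.43 and 7.17. The narrowest of all members, 99 bp wide, lay between COX7AL2, a gene for a cytochrome c oxidase subunit 7A-like protein, and CG31668, with ratios of 6.72 and 6.46; it alone among the 15 was higher in replicate 1. The last members of the 15 were farther from genes. One lay 4089 bp upstream of CG43131 and 14820 bp before RabGGTa, a subunit of the Rab geranylgeranyl transferase, with ratios of 6.20 and 6.97. Another lay between the forkhead genes slp1 and slp2 of embryonic segmentation, 4297 bp upstream of slp2, with ratios of 5.35 and 6.68.

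**Figure D2:**
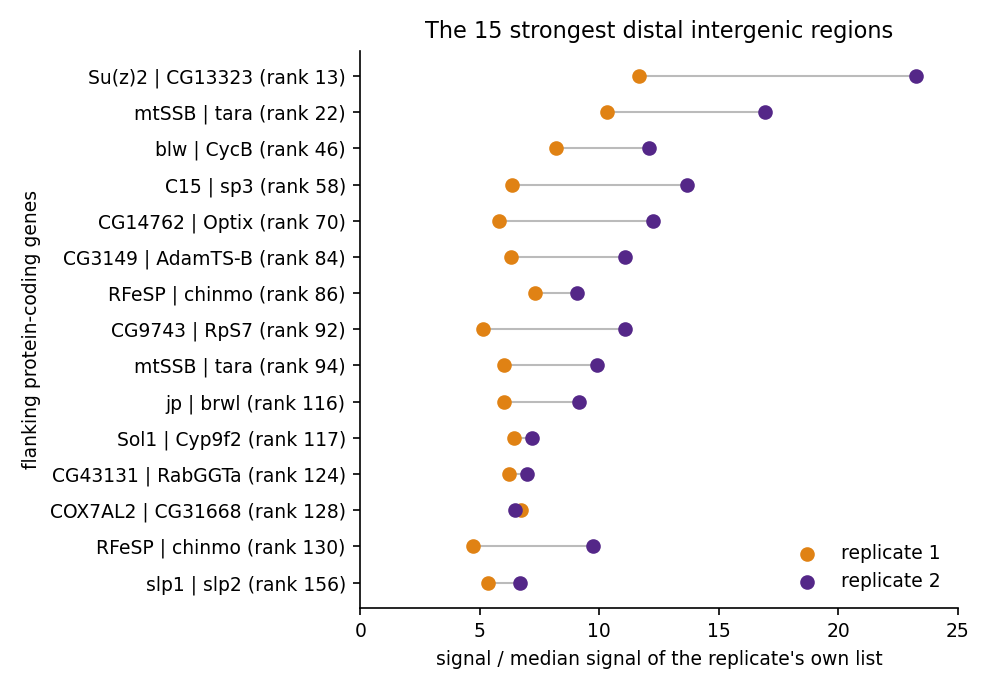
Signal ratio (signal over the median of the same list, linear axis from 0) of the 15 strongest members in replicate 1 and replicate 2, one row per member with its flanking protein-coding genes and pooled rank. Points are single replicates, and 14 of the 15 are higher in replicate 2.

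The gap between RFeSP and chinmo on arm 2L held more members than any other. RFeSP encodes the Rieske iron-sulfur protein of respiratory complex III, and chinmo (FBgn0086758) a BTB zinc-finger transcription factor of temporal identity in neurons; they are transcribed away from each other and lie 37097 bp apart. The gap held 26 regions of the pooled list, of which 8 were members, with ranks from 86 to 2107. Of the 8, 6 were matched in both replicates and 5 were in the IDR list, the authors' list thresholded on the irreproducible discovery rate. The remaining regions were weaker or within 500 bp of the start of a non-coding gene or inside one.

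The 8 summits stood between 896 and 23329 bp upstream of the first base of chinmo. The strongest, at 2L bases 1638646 to 1638773 and 12553 bp upstream, had ratios of 7.32 and 9.05 in replicates 1 and 2. The one at 1632658 to 1633053, 18402 bp upstream, had 4.71 and 9.72. The one at 1648619 to 1649014, 2441 bp upstream, had 6.73 and 4.00, and so was higher in replicate 1. The summit 7842 bp upstream had 3.39 and 6.10, and the summit 12351 bp upstream had 3.61 and 2.80. The region of that last summit overlaps the strongest one, with summits 202 bp apart, so they are not separate observations. Of the 3 weakest, the summit 16972 bp upstream was matched in replicate 2 alone at 3.82, and the summit 23329 bp upstream in replicate 1 alone at 2.66. The summit nearest chinmo had 1.34 and 2.46. Replicate 2 was thus not higher throughout the gap: among the 6 matched in both, 4 were higher in replicate 2 and 2 in replicate 1.

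**Figure D3:**
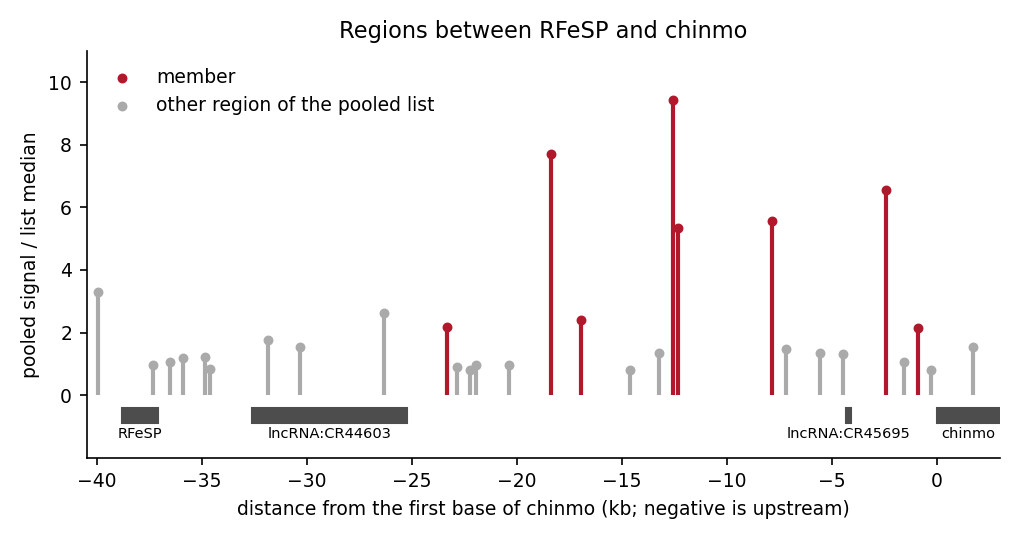
Regions of the pooled list in the gap between RFeSP and chinmo, by distance from the first base of chinmo (kb) and by signal ratio in the pooled list. Each stem stands at a summit, in red for members and grey for other regions, and dark bars are genes, chinmo running on past the right edge; the 8 members lie between 23329 and 896 bp upstream of chinmo.

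Most members stood alone in their gap. The 259 members lay in 205 gaps between neighbouring protein-coding genes; 169 gaps held 1 member, 24 held 2 and 10 held 3. The 36 gaps with more than 1 member held 90 members between them. After the chinmo gap, the fullest was the 21069 bp between Ids, which encodes iduronate 2-sulfatase, and sty (sprouty), an inhibitor of FGF and EGF receptor signalling that limits tracheal branching. Its 4 members had ranks from 440 to 1337. The strongest had ratios of 4.14 and 3.42 in replicates 1 and 2 and lay 2572 bp past the end of Ids. The other 3 lay between 4865 and 6479 bp past the end of sty, with ratios of 4.32 and 3.72, of 2.48 and 3.61, and for the member matched in replicate 2 alone of 3.38. That last one overlaps a stronger neighbour with a summit 312 bp away.

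In the 3 further gaps ranked highest among those with 3 members each, all members were matched in both replicates, as were 90.3% of members everywhere. In the mtSSB to tara gap the third member, 3810 bp upstream of tara, had ratios of 2.59 and 3.81. In the 5808 bp between COX7AL2 and CG31668 the other 2 members, 1468 and 3376 bp upstream of COX7AL2, had ratios of 2.31 and 4.25, and of 1.78 and 3.15. In the 30292 bp between noc (no ocelli), a zinc-finger gene, and CG33648 the strongest member had 3.99 and 8.0 and lay 8756 bp past the end of noc. The other 2 in that gap had 4.19 and 2.02, and 3.38 and 2.58. All 3 tara members and the weaker COX7AL2 members were thus higher in replicate 2, while in the noc gap the strongest was higher in replicate 2 and the others in replicate 1. Members could lie close together: 10 members, in 5 overlapping pairs, had another member within 400 bp, and 83 (32%) had one within 10000 bp.

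Distances to genes were moderate. The nearest transcript start of any gene was 502 to 37696 bp from the summit, with a median of 2742 bp and quartiles of 1276 and 6063 bp. The same median was 3032.5 bp over all 4888 distal intergenic regions of the list, and 5974 bp over 355858 windows, each as long as the stretches of bases shown above, laid end to end through all distal intergenic sequence of the 6 arms (the tiled windows). A tiled window had to lie wholly in such sequence, while a member needed only its summit there. No window centre could therefore lie as close to the 500 bp limit as the nearest members. The windows also include repeats. Members were more often within 1000 bp of a start, at 18.1% (95% Wilson interval 13.9 to 23.3), against 14.8% of distal intergenic regions in the list and 7.3% of tiled windows. They were beyond 10000 bp in 12% (8.56 to 16.5), against 12.8% and 35.4% in the same comparison groups. The members thus lay near the other regions of the list in distance, and nearer to starts than the sequence available. Wilson intervals here cover counting error over regions only, and no test was made, because regions are not replicates.

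**Figure D4:**
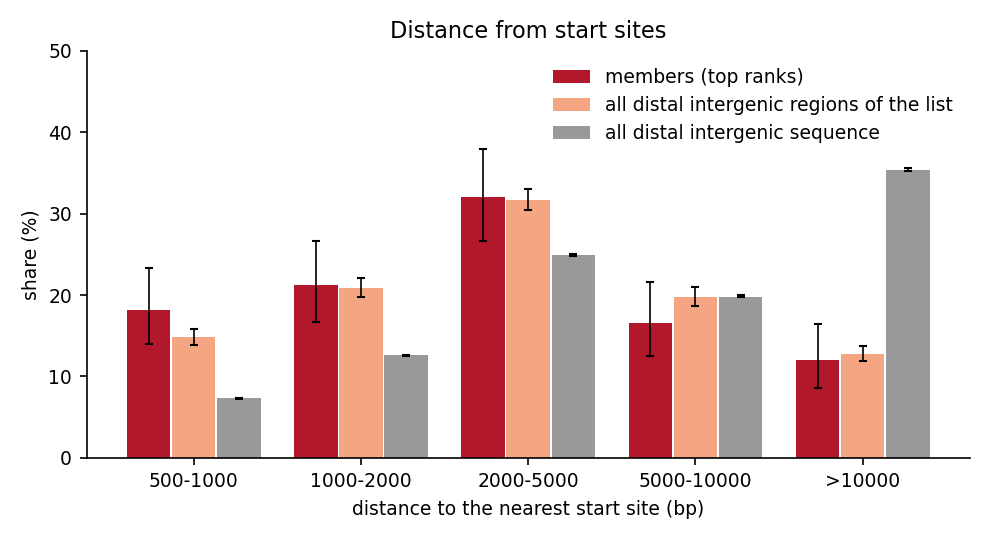
Share (percent) of members, of all distal intergenic regions of the pooled list and of tiled windows in 5 bins of distance from the nearest transcript start (bp). Error bars are 95% Wilson intervals; beyond 10000 bp are 12% of members and 35.4% of tiled windows.

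Members lay in shorter gaps than the sequence available. The gap between the flanking genes of any kind had a median of 10506 bp, against 10989 bp for all distal intergenic regions of the list and 19579 bp for tiled windows. The flanking protein-coding genes, which need not be those that bound this gap, pointed away from each other for 88 members (34%, 28.5 to 39.9). The same was so for 28.8% of the list's distal intergenic regions and 23.5% of windows. The flanking protein-coding genes pointed the same way for 46.7% of members and towards each other for 19.3%, against 50% and 21.1% of the list's distal intergenic regions. The nearest start belonged to a protein-coding gene for 163 members, a non-coding RNA gene for 88, a tRNA gene for 6, a snoRNA gene for 1 and a pseudogene for 1. A flanking protein-coding gene had its own ranked region at a start for 61 members (23.6%, 18.8 to 29.1), against 15.3% of the list's distal intergenic regions and 7% of windows. Regions near a start are themselves part of the same ranking, so this last share is a description.

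Genes of the hypoxia response take up little of the sequence in which members could lie. A list gene was counted when it was the next protein-coding gene on either side, whatever its distance. None of the 8 genes of the HIF pathway list, such as sima, tgo and Hph, flanked a member (0%, against 0.0301% of tiled windows), so the 0 says nothing about the members. Of 12 hypoxia target genes 1 flanked a member (0.386%, against 0.228% of windows). That was scyl (scylla), an inhibitor of growth signalling through TOR, whose member had rank 2432, lay 8757 bp from the nearest start and had ratios of 1.03 and 2.79 in replicates 1 and 2. The glycolysis and lactate list had 1 of 15, Hex-A (hexokinase A), with a member (0.386%, against 0.0759% of windows) at rank 729 and ratios of 1.97 and 4.87. Its summit lay 10578 bp past the end of Hex-A and 639 bp upstream of Gga, which had the nearest start. The scyl and Hex-A members were both higher in replicate 2, and the scyl value in replicate 1 was at about the median of its list. The 93 cytoplasmic ribosomal protein genes flanked 1 member, the one by RpS7 (0.386%, against 1.62% of windows), and the 73 mitochondrial ones 0 (0%, against 0.888%).

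Among the lists of developmental genes, the tracheal branching list had 4 of 16 genes beside 8 members (3.09%, against 1.11% of tiled windows beside a gene of the list). These were sty with 4 members, aop (yan), an ETS repressor downstream of receptor tyrosine kinases, with 2, and the knirps-family nuclear receptors kni and knrl with 1 each. The aop members had ratios of 2.70 and 3.11, and of 2.02 and 3.24, in replicates 1 and 2, and lay 836 and 1469 bp upstream of its start. The kni member lay 16227 bp upstream of kni and had 2.41 and 1.95. The knrl member lay 8607 bp upstream of knrl and had 1.74 and 1.31, so both were higher in replicate 1. The segmentation list had 4 of 20 genes beside 4 members (1.54%, against 1.29% of windows): slp1 and slp2, which share 2, kni, and wg, a Wnt ligand. The wg member lay 10994 bp upstream of wg and had ratios of 2.08 and 2.26. The neural transcription factor list had 3 of 19 beside 5 members (1.93%, against 0.993%). The strongest of these, by SoxN, a SoxB gene of the early nervous system, had 3.74 and 3.41, and a second member by SoxN had 1.71 and 1.82. They lay 16452 and 5337 bp past the end of SoxN. The homeobox genes Dr, with 2 members, and pros, with 1, both of neural precursors, flanked the other 3. The Dr members lay 34020 bp upstream of Dr and 1920 bp past its end, and the pros member 59258 bp upstream of pros. Of 8 Hox genes, abd-A flanked 1 member, with 2.28 and 5.46. Its summit lay 8321 bp past the end of abd-A. The nearest start, at 1707 bp, was that of lncRNA:CR45750.

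The Polycomb group list had 4 of 14 genes beside 4 members (1.54%, against 0.202% of tiled windows). Besides the strongest member of all, by Su(z)2, there were 2 past the end of Psc, which encodes a subunit of Polycomb repressive complex 1. These had ranks 250 and 2497, overlap each other with summits 203 bp apart, and had ratios of 5.74 and 4.64 in replicates 1 and 2 for the stronger and 1.37 in replicate 1 alone for the weaker. The fourth lay between ph-d and ph-p, the polyhomeotic genes of the same complex, at rank 1369 with 2.61 and 1.84. No member was flanked by the 7 genes of the KLF and Sp list (0.269% of windows) or the 13 of the dorsoventral and mesoderm list (0.44% of windows). The same held for the 11 ecdysone response genes (0.194% of windows) and the 14 heat shock genes (0.0941% of windows), and such small shares leave little to read from a count of 0. The lists count genes of known name only, and nothing particular to a list is claimed from such small counts.

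Members were found again in the replicates at shares near or slightly above those of other strong regions. A summit within 100 bp was present in both replicate lists for 234 members (90.3%, 86.1 to 93.4), against 85.6% of all regions of the ranks searched. Of the other 25 members, 12 were matched in replicate 1 alone, 13 in replicate 2 alone and 0 in neither. The matched region also ranked as high (the same 8.48%) in the list of each replicate for 128 members (49.4%, 43.4 to 55.5), against 45.6% of the ranked regions. The members' interval lies just above the 85.6% of ranked regions for the matched share and includes the 45.6% for the other. These intervals treat regions as independent, so this is a description. The IDR list held 136 members (52.5%) and 4.24% of all regions of the pooled list; since that list is the top of the same pooled signal that chose the members, nothing is read from this. Inside the IDR list 83.8% of members ranked as high in both replicates, against 11.4% of the 123 members below it. The pooled signal that makes this split holds the reads of both replicates, so nothing is read from the difference either.

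The size of the signal varied between the replicates. Matched summits, which by the definition of a match lie within 100 bp, were shifted by a median of 16 bp in replicate 1 and 20 bp in replicate 2. The ratio ran from 0.779 to 11.6 in replicate 1, with a median of 2.26 over 246 members, and from 0.799 to 23.2 in replicate 2, with a median of 2.72 over 247. Over the 234 members matched in both, 153 (65.4%) were higher in replicate 2, against 67.7% of regions near a start and 63% of distal regions in genes. The median log2 ratio of replicate 2 over replicate 1 was 0.32. A difference over 2-fold was seen for 53 members (22.6%). The widest, chosen after the values were seen, was rank 1330 between Sid and snu, with 0.904 in replicate 1 and 4.08 in replicate 2, and in the other direction rank 857 between prage and Lamtor5, with 4.03 and 1.05. Across the 234 members, which come from the same libraries and were chosen on their pooled reads, Spearman's rho was 0.401 and Pearson's r of the log2 ratios 0.508, given as descriptions.

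**Figure D5:**
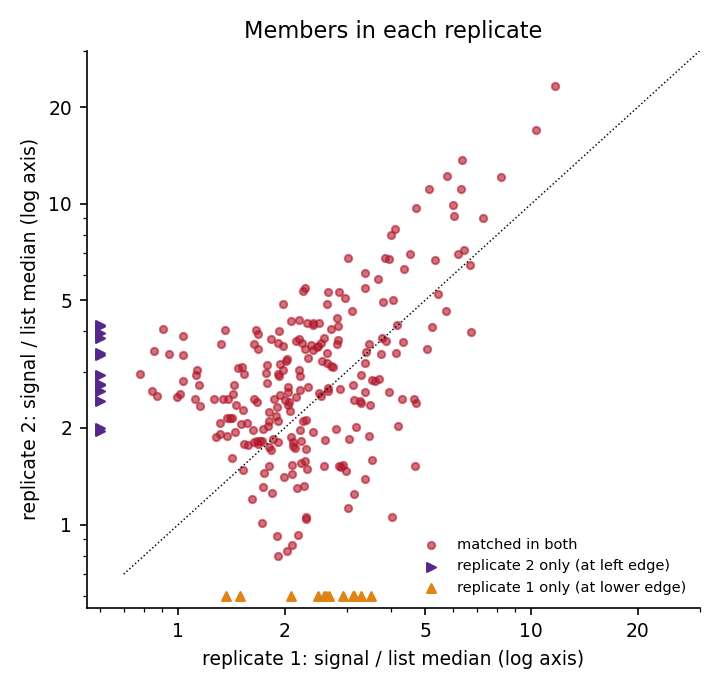
Signal ratio in replicate 2 against replicate 1 (both log axes) for the 234 members matched in both replicates, with the line of equal values; triangles at the edges are the 25 members matched in 1 replicate. Points scatter to both sides of the line, with 153 of 234 above it.

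Their sequence was more AT-rich and less often masked than distal intergenic sequence as a whole, and close to that of the other ranked regions in both. The mean G+C content from 50 bp before to 50 bp after the summit was 35.7% ± 7.66 (SD over 259 regions), against 36.2% ± 9.51 near starts, 35.1% ± 7.86 in distal regions of genes and 40.8% ± 9.74 in tiled windows. Windows over 50% soft-masked as repeats were 5.79% of members (3.54 to 9.33), against 8.42% of regions near starts, 6.54% of distal regions in genes and 18.7% of tiled windows; tiled windows at most 50% masked had 42.1% ± 8.93 G+C. The members' mean G+C content thus lay below that of distal intergenic sequence as a whole, by less than 1 SD.

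Of 13 words searched on both strands of the same stretches, the interval of the members excluded the share of tiled windows for TTAAAA, which was more frequent, and GGGCGG, which was less. Such intervals treat regions as independent, which members that overlap or share a gap are not, so this is a description and not a test. The hypoxia core, ACGTG or GCGTG, was in 41 members (15.8%, 11.9 to 20.8), against 16.5% of regions near a start, 13.2% of distal regions in genes and 17% of tiled windows, so its share was like that of distal sequence at large. The E-box CACGTG, which contains ACGTG, was in 1.16%, against 1.09% of windows. TTAAAA was in 25.5% (20.6 to 31.1), against 32.8% near starts, 25.7% in genes and 18.5% of windows. CGATA, the core shared by the insulator protein BEAF-32 and the factor DREF, was in 13.5% (9.88 to 18.2), against 21.1% near starts, 11.7% in genes and 10.5% of windows, and the longer DREF word TATCGATA, which contains it, in 1 member (0.386%), against 3.45% near starts and 0.216% of windows. GAGAG, a word of the GAGA factor, was in 9.27%, against 11% of windows, and GCCAT, the core of the Polycomb recruiter Pho, in 16.2%, against 19.8%. Of the Zelda word CAGGTA there were 1.93%, against 2.15%, and of GGGCGG, a word of Sp and KLF factors, 0.772% (0.212 to 2.77), against 1.99% near starts, 2.25% in genes and 3.11% of windows. The runs AAAAAA and CACACA were in 22% and 7.72%, against 19.9% and 8.06%. TGACTCA was in 0 of 259 members, which allows a share of up to 1.46% by the Wilson interval, against 0.718% of windows. The word shares were not matched for G+C content or masking, in which members and tiled windows differ. TTAAAA holds only A and T, and GGGCGG only G and C, and the part of base composition in any of these shares was not tested. A word in a window is a match of letters and not a binding site.

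The members were spread over all arms. Arm 2L held 24.3% of members (19.5 to 29.9), against 18.5% of tiled windows, and arm 2R held 15.8% (11.9 to 20.8), against 20.6%. Arm 3L held 27.8% (22.7 to 33.5), against 24.7%, and arm 3R held 19.3% (15 to 24.5), against 21.1%. The X held 10.8% (7.59 to 15.2), against 14.5%, and chromosome 4 held 1.93% (0.827 to 4.44), against 0.673%. The interval of the members includes the share of windows for 2R, 3L, 3R and X, and lies above it for 2L and, from 5 members, for 4. This is a description, because the intervals treat regions as independent. Of the 63 members on 2L, 8 lay in the single gap between RFeSP and chinmo. Pooled embryos hold fewer copies of X than of the autosomes, and the part of copy number in the X share was not tested.

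The values the rule used run on without a break across its limits. The weakest members, ranks 2510, 2522 and 2537, had pooled ratios of 1.99, 1.98 and 1.98, and the first distal intergenic regions past the rank limit, ranks 2546, 2553 and 2558, had 1.97, 1.97 and 1.97. The members nearest a start were at 502, 519 and 522 bp, and the regions just left out were at 499, 500 and 500 bp.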

How the data were processed

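The authors deposited, for the dm6 build, 30000 regions per replicate, 30000 from the pooled reads and an IDR list of 1272, each in narrowPeak layout with the caller's signal value for every region and a −log10 q that was used for no comparison. The lists on dm3 were not used. Per the accompanying text files, each relaxed list was called against 1 control file. Caller, settings, IDR threshold and read depth per sample are not stated in the sources used here, so the precision that depth would give is unknown.

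From these, regions were ranked by pooled signal and the top 2544 searched; a comparison of positions showed that the IDR list equals the top 1272. Genes came from Ensembl release 115 (BDGP6.54) and bases from the Release 6 genome. A replicate region matched when its summit lay within 100 bp. Signals were divided by the median of their own list. Words were counted within 50 bp of the summit, on both strands. Python 3.11.15, numpy 2.4.6, pandas 2.3.3 and matplotlib 3.10.9 were used, and the code was tested on simulated regions. With 1 group of 2 replicates no test between groups was possible, and p-values were not computed. The 2 replicates are described in the labels as biological.

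The members, the 14 gene lists and the 13 words were chosen with earlier results of these data known. Named genes are those flanking the 15 strongest members, those of the 5 gaps with most members, the list genes flanking the 3 highest members of each list, and those at the rank limit. Other names in the text were chosen after their values were seen. The alternatives tried were other ranks, distances, match distances, windows, gene models and single replicates.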

Additional observations from a re-analysis of the deposited data

How the results depend on the processing

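Of 72 alternative values of the 8 results, 37 stayed within a set limit and 35 did not. The limit was the SD between the 2 replicate lists, but for the number of members it was a wider one, 1.5 times in either direction. That wider limit took in 212 members with starts excluded to 1000 bp, 372 with 250 bp and 336 with protein-coding genes alone. These counts lay beyond the SD of 30.4 from the 259 reported, so the number of members depends on these choices. The 35 values outside the limit follow, with single-replicate values given as ranges that also hold values within it. With only the ranks of the IDR list there were 136 members, 100% in the IDR list by construction, 94.9% matched in both replicates, 83.8% in the top of both and 13.2% with the hypoxia core, with a median distance to a start of 2146 bp and a median gap of 8426.5 bp. With starts excluded to 1000 bp, 90.1% were matched, the distance was 3621 bp and the gap 11907 bp; with 250 bp, 88.7% were matched, the distance was 1342.5 bp, the gap 6021 bp, the G+C content 35.0% and the core share 13.4%. With protein-coding genes alone, 89.9% were matched, the distance was 4131.5 bp and the gap 16293.5 bp. For the matched share the SD was 0.117 and came from the shares matched in the other replicate. It does not measure the spread of the share matched in both, so small shifts from 90.3% count as beyond it. A match within 50 bp gave 63.3% matched and 37.8% in the top of both, and one within 200 bp 96.1% matched. Windows reaching 100 bp to each side gave 37.2% G+C and 34.0% with the core, and windows reaching 25 bp 35.2% and 6.18%, the core share by construction of the window. Transposable elements counted as genes gave a gap of 9113 bp. Choosing members by a single replicate's list (leaving out the other) gave 258 and 301 members (both within 1.5 times), 41.5 to 49.6% in the IDR list, 70.8 to 70.9% matched in the other replicate, 42.2 to 49.2% in the top of both, distances of 2115.5 to 2594 bp, gaps of 8416 to 10116 bp, 36.4 to 36.8% G+C and 12 to 14.7% with the core. The cause of the other differences was not tested. Unknown depth, 2 replicates and the lack of a control sample analysed here limit every value.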

Other observations

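The words of 6 bases were counted in the members after the data were seen, and this count is a description only. Of 188 words present in at least 25 members, AGTGTA stood furthest above the tiled windows. It was in 28 members (10.8%), against 9.09% of distal regions in genes, 5.90% of regions near a start and 3.79% of tiled windows. Of its 28 members 27 were matched in both replicates, but so were 90.3% of all members, and nothing is read from this. TAACTA came next, in 26 members (10%), against 6.64% of distal regions in genes, 7.58% near starts and 4.32% of windows. The share of AGTGTA in distal regions inside genes was thus close to that in members.

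Members near small RNA genes and repeats were few. The nearest start was that of a tRNA gene for 6 members, from 566 bp (a tRNA:Ile-AAT gene, ratios of 3.18 and 2.02 in replicates 1 and 2) to 13985 bp. The summit lay in an INE-1 transposable element for 3 members, at ranks 819, 1575 and 2416. Arm 4 held 5 members, all matched in both replicates, as were 90.3% of members everywhere. The strongest of them lay between dati, a zinc-finger gene, and lgs (legless), an adaptor of Wnt signalling, with ratios of 3.67 and 5.83, and 2 lay between Asator and zfh2, a zinc-finger homeodomain gene, with 4.64 and 2.47, and with 1.42 and 1.61. The other 2 lay between fuss and toy, a Pax6 gene of the eye, with 2.04 and 2.58, and with 1.92 and 2.10.

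The best-ranked member missing from a replicate was rank 715, between Doc1, a T-box gene of the heart and amnioserosa, and Argk2, which encodes an arginine kinase. It was matched in replicate 2 alone, with a ratio of 4.20 at rank 574 there.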
